A study of Homo sapiens with 18 samples.

Results

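The response of WiDr cells to AZ628 was described across all measured genes, with emphasis on transcription factors, receptors, secreted proteins, transporters and other gene families. WiDr is an established human colorectal adenocarcinoma line, and AZ628 is a small-molecule inhibitor of RAF kinases. The comparison used 6 of the 18 arrays of the series, chosen by their titles: 3 arrays of WiDr treated with AZ628 and 3 arrays of WiDr given vehicle. The other arrays were WiDr with an shRNA against IKKα and with a control shRNA, and HT29, from which WiDr is thought to derive, with AZ628 and with vehicle. Neither group compared here carried a transgene or an shRNA, and both were the same line. The dose and duration of AZ628 are not given in the sources used here. Each array gave RMA log2 signals, which reflect the brightness of a probe set after background correction and normalization. Each of the 18132 genes was represented by 1 probe set.

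RAF kinases pass signals from RAS to MEK and then to ERK, the kinases of the classical MAPK cascade. WiDr and HT29 carry an activating BRAF mutation that keeps this cascade on without growth factors. ERK phosphorylates transcription factors such as those of the ETS family, stabilizes MYC and drives entry into the cell cycle, and in intestinal epithelium its activity is highest in the proliferating crypt compartment. Forkhead factors of the FOXO group, MondoA and the aryl hydrocarbon receptor are examples of transcription factors that respond to growth factor, nutrient or chemical signals.

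Over all genes, arrays of the AZ628 group correlated with each other at 0.9977 to 0.9979 and arrays of the vehicle group at 0.9975 to 0.9984, whereas AZ628 with vehicle arrays correlated at 0.9724 to 0.9735. Of 16 genes known as outputs of ERK signalling, 15 were lower with AZ628 and none higher, with a median log2 change of -2.55. All 10 markers of colon epithelium were above the lowest 25% of genes in mean signal, with 4 of them, including VIL1, CDH1 and CDH17, higher and KRT20, KRT18, KRT8 and LGALS4 lower, and their summed linear signal was 49960 to 51970 on the AZ628 arrays and 57990 to 58900 on the vehicle arrays. Markers of other cells had summed linear signals of 148.3 to 159.1 with AZ628 and 128.3 to 161.9 with vehicle for 6 fibroblast genes, 146.8 to 157.9 and 169.0 to 178.4 for 4 blood genes, and 180.0 to 211.1 and 184.4 to 207.5 for 4 endothelial genes. Every one of those 14 genes lay below the median gene in signal, as did 3 of the 10 colon markers. With AZ628 the dimmest colon marker averaged 5.545, under the brightest blood gene at 6.518, so single markers overlapped. Log2 array signals have no true zero.

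A gene was counted as changed at a Benjamini-Hochberg adjusted p under 0.05 over all genes, from limma's moderated test. By that rule 4249 genes, 23.4% of those tested, were higher with AZ628 and 3830, 21.1%, were lower. Counts of list members given below compare with these shares, and a list near them did not stand out from all genes. The AZ628 arrays lay all on 1 side of the vehicle arrays for 51.1% of genes, so such separation was common. At a change of at least 2-fold the counts were 784 higher (4.32%) and 789 lower (4.35%), and the median change over all genes was -0.0005388. Precision was limited by having 3 arrays per group. Nothing in the labels says whether the 3 were separate cultures, so each p-value reflects the variation among the arrays at hand, which may be technical only. In RNA from a whole culture, fewer cells in a given state and less RNA per cell cannot be told apart. Every change given is the mean log2 signal with AZ628 minus that with vehicle. Many probe sets bind several transcripts, of 1 gene or of its relatives. Of the 370 genes named, 139 have a probe set that binds a single transcript, and for the other 231 this check could not be made. Where the brightest such probe set did not keep the call, its change is given beside the gene's.

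The largest rise was that of CYP1A1, a cytochrome P450 that oxidizes aromatic hydrocarbons. Its log2 signal was 12.63, 12.49 and 12.52 on the AZ628 arrays and 5.41, 5.64 and 5.36 on the vehicle arrays, a change of 7.07 (SE 0.15, adjusted p = 5.24e-16), or 135-fold. UGT2B15, which conjugates steroids and drugs with glucuronic acid, read 11.97, 12.04 and 11.77 with AZ628 and 6.21, 6.30 and 6.68 with vehicle (5.53, SE 0.12, adjusted p = 6.68e-16). The stress-response gene NDRG1 read 12.06, 12.08 and 11.99 with AZ628 and 7.32, 7.36 and 7.35 with vehicle (4.70). In all 3 genes every AZ628 array lay above every vehicle array. NUPR1, a small chromatin-associated stress protein, rose by 3.98, and BLNK, the adaptor of B cell receptor signalling, by 4.05. RFX6, a factor known for directing endocrine pancreas development, read 9.56, 9.67 and 9.40 with AZ628 and 6.18, 5.59 and 5.90 with vehicle, a rise of 3.65. SELENOP, the plasma carrier of selenium, rose by 3.64 and SELENBP1, a selenium-binding methanethiol oxidase, by 3.18. HPGD, which inactivates prostaglandins, rose by 3.17, and its 8 probe sets spanned 2.90 to 3.65. The brush-border disaccharidase sucrase-isomaltase, SI, rose by 2.99, the flavin monooxygenase FMO5 by 3.69 and the epoxide hydrolase EPHX2 by 2.88.

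The largest fall was that of CEMIP, which takes part in hyaluronan breakdown. It read 4.13, 4.71 and 4.67 on the AZ628 arrays and 9.84, 9.86 and 9.86 on the vehicle arrays, a change of -5.35 (SE 0.13, adjusted p = 2.08e-15), although its other probe set changed by only -0.18. CXCR4, the receptor of the chemokine CXCL12, read 5.83, 5.57 and 5.97 with AZ628 and 10.81, 10.50 and 10.61 with vehicle (-4.85, SE 0.14, adjusted p = 1.51e-14), and its 4 probe sets changed by between -3.64 and -4.85. These AZ628 arrays all lay below the vehicle arrays. NNMT, which methylates nicotinamide, changed by -3.78. CTPS1, which makes CTP, changed by -3.25, NOX1, the NADPH oxidase of colonic epithelium, by -3.17, and HK2, a hexokinase, by -2.80. HSD17B2, which oxidizes estradiol and testosterone, changed by -3.68, and the adhesion molecule CEACAM1 by -3.52.

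**Figure D1:**
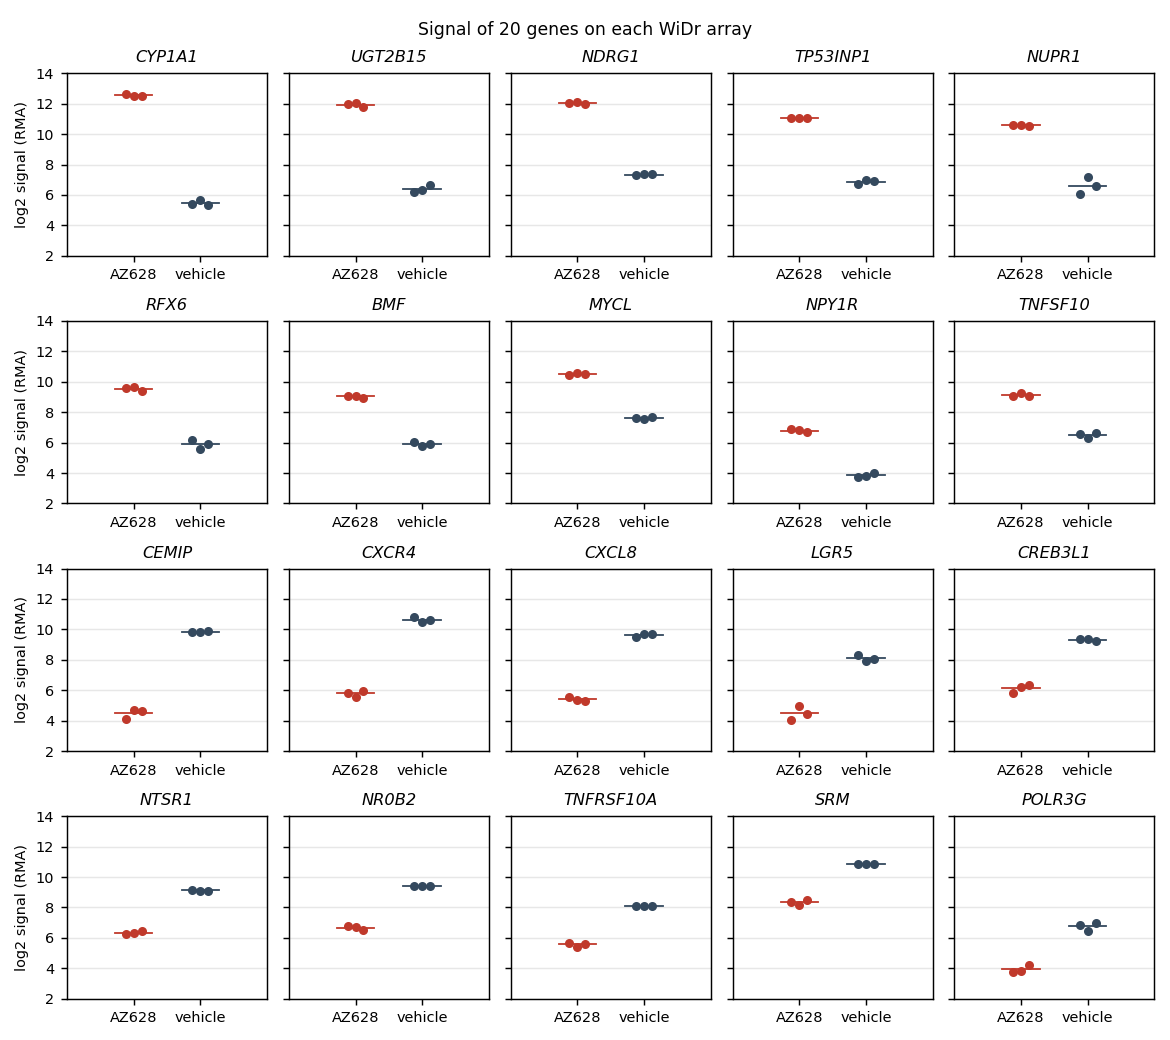
Log2 RMA signal (vertical axis) of 20 genes on each of the 3 WiDr arrays with AZ628 (red, left in each panel) and the 3 with vehicle (dark blue, right), with horizontal lines at the group means. In every panel the AZ628 points lie all on 1 side of the vehicle points: above for the first 10 genes, CYP1A1 to TNFSF10, and below for the last 10, CEMIP to POLR3G.

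Drug-metabolizing and retinoid enzymes held many of the strongest rises. The aryl hydrocarbon receptor is a ligand-activated factor that pairs with ARNT and switches on CYP1 genes and its own repressor AHRR. Of 14 measured genes of its known battery, 8 were higher and 2 lower. CYP1B1, a relative of CYP1A1, rose by 3.95 (SE 0.07, adjusted p = 2.06e-16), but its 5 probe sets spanned 0.20 to 4.13. AHRR read 8.54, 8.41 and 8.53 with AZ628 and 5.70, 5.72 and 5.58 with vehicle, a rise of 2.83 with no overlap of the groups. ALDH3A1, an aldehyde dehydrogenase of the battery, rose by 1.23, ARNT by 0.97 and TIPARP, an ADP-ribosyltransferase that restrains the receptor, by 0.95. The receptor gene itself, AHR, changed by -0.50, and SLC7A5, an amino acid transporter placed in the battery, by -2.21.

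Among all 47 measured cytochrome P450 genes, 10 were higher and 5 lower (21.3% and 10.6%). Both shares were below those over all genes, 23.4% and 21.1%. The falls included CYP24A1, which inactivates vitamin D, at -1.56 and CYP2S1, which is also a dioxin-inducible P450, at -1.05. Of 18 glutathione transferases, 8 were higher (44.4%) and 3 lower (16.7%). The rises were led by GSTA1 at 3.78 (0.27 on a single-transcript probe set, adjusted p = 0.266), GSTA2 at 2.25 and GSTA4 at 1.68. GSTA1 and GSTA2 are near-identical, as are UGT2B15 and its neighbours, so signal may be shared between the copies. The aldehyde dehydrogenases, aldo-keto reductases and retinol dehydrogenases counted 23 higher and 12 lower of 48. ALDH1A3, which makes retinoic acid, read 11.84, 11.84 and 11.76 with AZ628 and 8.39, 8.22 and 8.28 with vehicle (3.51), and its 5 probe sets spanned -0.21 to 3.51. Its relative ALDH1A1 rose by 1.46. Within the aldo-keto reductases the 1C and 1B branches parted: AKR1C1, AKR1C2 and AKR1C4, which reduce steroids, rose by 2.27, 2.07 and 1.53, whereas the retinal reductase AKR1B10 and its close copy AKR1B15 changed by -3.07 and -3.24.

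Genes known as targets of FOXO factors were higher as a group in count. FOXO proteins are held out of the nucleus by AKT and, when active, switch on genes of cell cycle arrest, death and stress defence. Of 28 measured targets, 23 (82.1%) were higher and 3 lower, with a median change of 1.33 against a median near 0 over all genes. TNFSF10, the death ligand TRAIL, read 9.04, 9.26 and 9.06 with AZ628 and 6.55, 6.33 and 6.61 with vehicle (2.62, SE 0.10, adjusted p = 2.96e-13). SESN1, a sestrin that restrains mTORC1, read 10.80, 10.77 and 10.76 with AZ628 and 8.67, 8.64 and 8.58 with vehicle (2.15). PIK3IP1, a membrane inhibitor of PI3K, read 7.72, 7.61 and 7.98 with AZ628 and 5.73, 5.72 and 5.71 with vehicle, a rise of 2.05 (-0.10 on a single-transcript probe set, adjusted p = 0.654). The groups did not overlap for any of these 3 genes. CITED2, a coregulator of CBP and p300, rose by 2.04, the repressor BCL6 by 1.74, the kinase PDK4, which blocks pyruvate entry into mitochondria, by 1.67 and the F-box gene FBXO32 by 1.44. KLF6, a zinc finger factor, was among the falls at -0.65. Of PCK1, G6PC1, TRIM63 and FOXO1, also on the list, none rose. Among these, 2 passed in neither direction and the rest fell by less than 2-fold. Without AZ628 replicate 1 or vehicle replicate 2 the count of falls was 1. Of the FOXO genes themselves, FOXO3 rose by 1.41 and FOXO4 by 0.86 (0.08 on a single-transcript probe set, adjusted p = 0.641). FOXO1, which is also on the target list, was not among the rises.

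Genes of the PI3K, AKT and mTOR pathway counted 16 higher and 7 lower of 30. Several of those that rose restrain the pathway in textbook accounts, among them DEPTOR, an mTOR-binding inhibitor (1.60), SESN3 (1.43), and DDIT4, which acts through the TSC complex (1.17). The regulatory PI3K subunit PIK3R3 rose by 2.33. EIF4EBP1 and EIF4EBP2, both repressors of the cap-binding factor, moved in opposite directions: EIF4EBP1 read 8.72, 8.72 and 8.61 with AZ628 and 10.81, 10.96 and 10.78 with vehicle (-2.17), while EIF4EBP2 rose by 0.91. The insulin receptor adaptor IRS1 changed by -1.07 and AKT1 by -0.60. In the small set around TFEB, folliculin and the RAG GTPases, which sense amino acids at the lysosome, 7 of 13 were higher and none lower (1 lower without AZ628 replicate 2 or 3), with RRAGC at 0.88 and FNIP1 at 0.78.

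Genes associated with quiescence or reduced proliferation counted 25 higher and 2 lower of 33, with a median of 0.92. TENT5C, a cytoplasmic poly(A) polymerase lost in some myelomas, rose by 4.26, but its 3 probe sets spanned 0.45 to 4.26. TP53INP1, a p53-inducible autophagy protein, read 11.03, 11.07 and 11.09 with AZ628 and 6.71, 6.98 and 6.93 with vehicle (4.19), and its second probe set changed by 0.09. TP53INP2 rose by 2.85, YPEL5 by 2.19, and CDKN1C, the cyclin-dependent kinase inhibitor p57, by 1.95. CDKN1A, CDKN2A and CDKN2D, further kinase inhibitor genes on the list, did not all rise. BTG3, an antiproliferative protein, moved the other way at -1.60. Within the death receptors, BCL2 family and caspases, 14 of 35 were higher and 10 lower. The BH3-only proteins, which neutralize BCL2 and its relatives, split: BMF read 9.09, 9.09 and 8.96 with AZ628 and 6.01, 5.76 and 5.94 with vehicle (3.14, SE 0.10, adjusted p = 3.81e-14), BBC3 rose by 1.23 and BIK by 0.82, whereas PMAIP1 changed by -1.54 and BID by -1.38. The 4 BMF probe sets spanned 0.14 to 3.14. TNFRSF10A, which encodes TRAIL receptor 1, read 5.67, 5.43 and 5.63 with AZ628 and 8.10, 8.10 and 8.09 with vehicle (-2.52), and TNFRSF10B, for receptor 2, fell by 0.73, opposite in direction to the ligand gene TNFSF10. MLKL, the effector of necroptosis, fell by 1.68, and the gasdermin GSDMB rose by 1.28.

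MondoA, encoded by MLXIP, is a glucose-sensing factor that acts with MLX on paired E-box-like elements, and TXNIP and ARRDC4 are its best-known targets. TXNIP, an arrestin-domain protein that limits glucose uptake, read 12.22, 12.11 and 12.17 on the AZ628 arrays and 9.77, 10.19 and 9.94 on the vehicle arrays, a change of 2.20 (SE 0.09, adjusted p = 8.90e-13). ARRDC4, a related arrestin, read 10.59, 10.67 and 10.51 with AZ628 and 7.91, 8.54 and 8.29 with vehicle (2.35, SE 0.12, adjusted p = 3.30e-11). In both, all AZ628 arrays lay above all vehicle arrays. ARRDC3 rose by 1.59 and MLXIP by 1.45, whereas ARRDC2 changed by -1.28 and MLX by -0.42. Promoter stretches of both targets, from RefSeq on GRCh38.p14, are shown. That of TXNIP holds the paired kind of element that MondoA is known to bind, whereas in ARRDC4 only a single E-box is marked. In TXNIP (chr1:145996610-145996709, minus strand, 130 to 31 bases before the start) the capitals mark a match to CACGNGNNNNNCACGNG, searched on both strands, which 0.057% of 35116 windows from 250 bases before to 50 after a start held. In ARRDC4 (chr15:97960473-97960552, plus strand, 230 to 151 bases before the start) they mark the E-box CACGTG, which 7.26% of windows held and which can also lie inside the longer element. A match describes the letters and does not show binding.
TXNIP: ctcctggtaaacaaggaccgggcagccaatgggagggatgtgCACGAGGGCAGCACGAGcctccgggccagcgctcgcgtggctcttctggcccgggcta
ARRDC4: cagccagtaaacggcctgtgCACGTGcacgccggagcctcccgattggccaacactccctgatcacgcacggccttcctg

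SLC2A1, the main glucose carrier of growing cells, read 9.36, 9.27 and 9.18 with AZ628 and 11.19, 11.15 and 11.13 with vehicle, a change of -1.88 with no overlap. SLC2A12 and SLC2A10, lesser members of the same family, rose by 1.94 and 1.21. SLC16A4, of the monocarboxylate transporter family, rose by 2.93, with its 4 probe sets between 2.93 and 3.34. The intestinal sodium-glucose cotransporter SLC5A1 changed by -0.74, and SLC5A6, which carries biotin and pantothenate, by -1.39. Over the 43 sugar and monocarboxylate carriers 8 were higher and 8 lower, both below the shares over all genes.

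Transcription factor families differed in how many members changed. Of 39 nuclear receptors, which are ligand-regulated factors, 13 (33.33%) were higher and 5 (12.82%) lower, against 23.4% and 21.1% of all genes. THRB, a thyroid hormone receptor, read 8.42, 8.25 and 8.33 with AZ628 and 6.09, 5.90 and 6.19 with vehicle (2.27, SE 0.11, adjusted p = 8.87e-12). The mineralocorticoid receptor NR3C2 rose by 1.50, the fatty acid sensor PPARA by 1.12 (0.09 on a single-transcript probe set, adjusted p = 0.68) and NR5A2, a receptor of gut and liver, by 0.99. NR0B2, an atypical receptor that represses bile acid synthesis, read 6.81, 6.69 and 6.52 with AZ628 and 9.41, 9.38 and 9.38 with vehicle (-2.72). RORA, a clock-linked receptor, changed by -1.10 and PPARG by -0.77. The groups of arrays were separate in THRB and in NR0B2. PPARGC1A, the coactivator of PPARA and other receptors, rose by 2.25.

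In the ETS family, whose members share a DNA-binding domain and include direct ERK substrates, 7 of 27 were higher and 9 lower. The falls were led by the PEA3 group, ETV5 at -4.90, ETV1 at -4.50 and ETV4 at -2.56, followed by the ternary complex factor ELK4 at -1.52. The epithelial member ELF3 averaged 12.11 with AZ628 and 10.31 with vehicle (1.79), and ELF1 and ETS1 rose by 1.02 and 0.97. Factors of intestinal identity counted 10 higher and 1 lower of 22, and this list shares ELF3 and EHF with the ETS family. ASCL2, a factor of crypt stem cells, rose by 1.01 and GATA6, an endoderm factor, by 0.47. FOXA2, an endoderm pioneer factor, fell by 0.36, and without vehicle replicate 1 the count of falls was 2.

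Among 27 HOX genes, which set position along the body axis, 5 were higher and 5 lower (18.52% each, against 23.4% and 21.1% of all genes). All the rises came from clusters B and C, as did every fall but HOXD13. HOXC4 rose by 1.61, HOXB13, a factor of distal gut and prostate, by 1.36 and HOXC6 by 1.13. HOXD13 was the largest fall at -1.37. Of 19 SOX factors 4 were higher (21.05%, near the share over all genes), led by SOX6 at 1.75 and SOX4 at 0.87. Among 25 KLF and SP factors 8 were lower and 3 higher: KLF13 changed by -0.94 and KLF6 by -0.65, while KLF8 rose by 1.66. The large ZNF zinc finger family counted 165 higher and 66 lower of 486. In that family ZNF239 changed by -3.34 and ZNF425 by 1.66. MYCL, the L-MYC gene, read 10.46, 10.56 and 10.52 with AZ628 and 7.60, 7.53 and 7.67 with vehicle, a rise of 2.91, though its 4 probe sets spanned 0.48 to 2.91. MYC itself read 8.70, 8.50 and 8.68 with AZ628 and 12.52, 12.61 and 12.70 with vehicle (-3.98). RUNX2, a runt factor known for bone formation, changed by -2.55.

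E2F factors and their partners, which time the genes of DNA synthesis, were lower in 14 of 17 and higher in 2, with a median of -0.77. The atypical repressor E2F7 changed by -1.89, the activator E2F1 by -1.50 and MYBL2 by -1.08. Those that rose were the pocket protein RBL2, found with E2F4 in resting cells, at 0.50 and the dimer partner TFDP2 at 0.43. The bZIP factors counted 11 higher (28.95%) and 13 lower (34.21%) of 38, against 23.4% and 21.1% of all genes. A pair of membrane-bound relatives moved apart: CREB3L1 read 5.82, 6.22 and 6.37 with AZ628 and 9.38, 9.39 and 9.23 with vehicle (-3.20), while CREB3L2 rose by 1.52 (-0.21 on a single-transcript probe set, adjusted p = 0.316). CEBPA rose by 1.06 and CEBPB fell by 0.81, both members of the C/EBP family. Among 19 clock genes 10 were higher and 5 lower, including the output factor DBP at 1.31 and the repressor gene PER3 at 0.88, against BHLHE41 at -0.91 and CLOCK at -0.43.

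IRF and STAT factors, which carry interferon and cytokine signals, were higher in 8 of 13 and lower in 1 (0 without AZ628 replicate 2 or vehicle replicate 2). STAT4 rose by 0.96, IRF7 by 0.92 and IRF9, the DNA-binding subunit of the interferon complex ISGF3, by 0.88. The kinase JAK1 rose by 1.16. Among single genes of interferon responses, chosen after their values were seen, the RNA sensor IFIH1 rose by 1.50 (0.06 on a single-transcript probe set, adjusted p = 0.767) and the guanylate-binding protein GBP2 by 2.88. The inducible immunoproteasome subunits PSMB9, PSMB8 and PSMB10 rose by 1.26 (0.03 on a single-transcript probe set, adjusted p = 0.93), 1.10 (-0.01 on a single-transcript probe set, adjusted p = 0.978) and 0.46, and the peptide transporter TAP1 by 0.98. By contrast 25 of 44 proteasome genes were lower and 9 higher, with the assembly factor PSMG1 at -1.26 and the activator PSME3 at -1.37. Of 25 pattern recognition receptors 4 were higher and 4 lower (16% each, below the 23.4% and 21.1% over all genes). TLR3 rose by 1.24 and TLR5 by 0.75, whereas the endotoxin receptor TLR4 changed by -1.98 and the DNA sensor CGAS by -1.26.

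Of 70 G protein coupled receptors for peptides, amines, lipids and nucleotides, 7 were higher (10%) and 14 lower (20%), and 25 were in the lowest 25% of genes by mean signal. At least 2-fold changes were made by 2 of the rises and 5 of the falls, against 4.32% and 4.35% over all genes. NPY1R, a neuropeptide Y receptor, read 6.87, 6.81 and 6.67 with AZ628 and 3.77, 3.83 and 3.97 with vehicle (2.93), with probe sets from 0.29 to 2.93. ADRB1, the beta-1 adrenergic receptor, read 8.37, 8.24 and 8.22 with AZ628 and 6.16, 5.86 and 5.99 with vehicle (2.28, SE 0.12, adjusted p = 3.01e-11). Both lay clear of the vehicle arrays. NTSR1, the neurotensin receptor, read 6.27, 6.31 and 6.45 with AZ628 and 9.17, 9.10 and 9.08 with vehicle (-2.78). ADORA2B, an adenosine receptor coupled to cAMP in colon, read 4.59, 4.27 and 4.92 with AZ628 and 7.28, 7.20 and 7.37 with vehicle (-2.69). The groups were again separate. GPRC5A, an orphan receptor of epithelium, changed by -2.54, the alpha-2A adrenergic receptor ADRA2A by -1.81 and the long-chain fatty acid receptor FFAR4 by -1.79. Among 26 adhesion receptors, which carry long extracellular domains, ADGRF1 rose by 1.61, while ADGRL4 fell by 1.55.

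Downstream of these receptors, adenylate cyclase 3, ADCY3, changed by -2.31 and ADCY6 by 0.67, the sole members of 10 cyclases that passed. The cyclic GMP phosphodiesterase PDE5A rose by 2.37, whereas PDE10A fell by 1.67. RGS proteins shut off G protein signals, and 6 of 18 were lower, led by RGS17 at -1.59 and RGS16 at -1.54. In the same list 2 were higher (1 without AZ628 replicate 1 or vehicle replicate 3). Of 22 chemokine receptors 4 passed, 3 lower and 1 higher, and all but CXCR4 changed by less than 2-fold. No chemokine receptor was higher without AZ628 replicate 1, AZ628 replicate 3 or vehicle replicate 1 (0 of 22).

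The TNF receptor superfamily, which includes the death receptors, was lower in 10 of 28 (35.7%) and higher in 1. Besides both TRAIL receptors, TNFRSF12A, the receptor of TWEAK, changed by -1.76, FAS by -1.10 and the decoy receptor TNFRSF11B by -0.77. TNFRSF14, which binds LIGHT and BTLA, rose by 0.92, and without AZ628 replicate 3 or vehicle replicate 3 the count of rises was 2. Interleukin and interferon receptors counted 10 higher (20%) and 5 lower (10%) of 50, both below the 23.4% and 21.1% over all genes. IL11RA rose by 1.61 (0.17 on a single-transcript probe set, adjusted p = 0.389) and IL6ST, the signal-transducing subunit it shares with the interleukin-6 receptor, by 1.14. IL10RB, a shared chain of interleukin-10 and interleukin-22 receptors, rose by 1.35 and IL1R1 by 1.08, while IL20RA fell by 1.33.

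**Figure D2:**
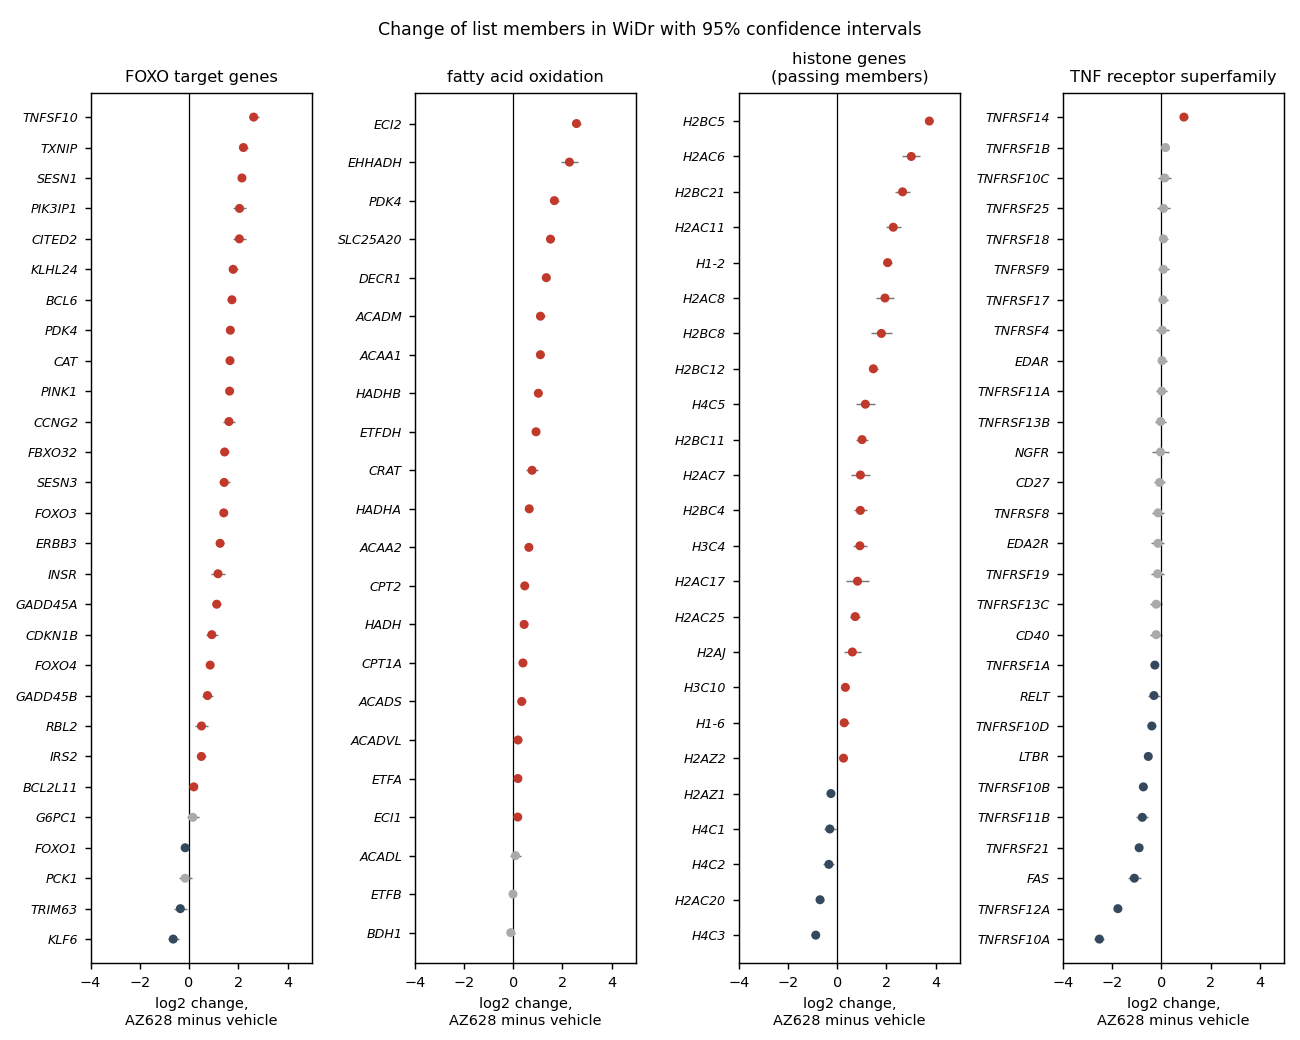
Log2 change, AZ628 minus vehicle in WiDr (horizontal axis), of the members of 4 gene lists with 95% confidence intervals from limma, red where higher, dark blue where lower and grey where the adjusted p missed 0.05. The FOXO targets and fatty acid oxidation genes lie mostly to the right of 0, the passing histone genes reach 3.74 for H2BC5, and the TNF receptors lie mostly at or to the left of 0 with TNFRSF10A lowest.

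Receptor tyrosine kinases counted 9 higher (18.75%) and 10 lower (20.83%) of 48, near the 23.4% and 21.1% over all genes. FGFR2 rose by 1.52 (-0.17 on a single-transcript probe set, adjusted p = 0.355) and ERBB3, which binds neuregulins and pairs with ERBB2, by 1.26 (0.23 on a single-transcript probe set, adjusted p = 0.0957). The insulin receptor INSR rose by 1.17 and ERBB2 by 0.89. EPHA2, an ephrin receptor, changed by -2.78 and TYRO3 by -1.07, and MET, the receptor of HGF, by -0.37. Receptor-type tyrosine phosphatases were higher in 8 of 18 and lower in 2, with PTPRM, a homophilic adhesion phosphatase, the largest rise at 1.81. Integrins were lower in 7 of 25 (28%, against 21.1% of all genes) and higher in 3, with a median change of 0.04. ITGB5, a vitronectin receptor subunit, changed by -1.75 and ITGA6, a laminin receptor subunit, by -1.08. Tetraspanins, which organize membrane microdomains, were higher in 12 of 31 and lower in 3. TSPAN12, a coreceptor of norrin signalling, rose by 2.13 and CD82 by 1.07. Of 106 cadherins and protocadherins 6 were higher, E-cadherin CDH1 at 0.78 and the brush-border protein CDHR5 at 0.93 among them, and 6 lower, and 66 of the 106 were in the lowest 25% of genes by mean signal. NECTIN3, a cell adhesion protein, rose by 2.41, and HHLA2, a B7 family ligand, by 1.88.

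Wnt signalling keeps crypt stem cells dividing. LGR5, an R-spondin receptor and stem cell marker, read 4.05, 4.99 and 4.45 with AZ628 and 8.30, 7.90 and 8.07 with vehicle (-3.59, SE 0.18, adjusted p = 1.50e-11), its other probe set changing by -0.67. The secreted antagonist DKK1 changed by -1.88 and TCF7L2, the DNA-binding partner of beta-catenin, by -0.86. The feedback genes AXIN2 and RNF43 rose by 1.43 and 0.74 (0.17 on a single-transcript probe set, adjusted p = 0.499), and the frizzled receptor FZD1 by 1.15. In all, 12 of 44 Wnt receptors, antagonists and feedback genes were higher (27.27%) and 7 lower (15.91%), against 23.4% and 21.1% of all genes. Of 18 Wnt ligands 2 were higher and 1 lower, WNT10A rising by 0.86, and without AZ628 replicate 3 the count of falls was 0. In the TGF-beta family the ligand BMP2 read 9.64, 9.52 and 9.45 with AZ628 and 7.75, 7.80 and 7.83 with vehicle (1.74), TGFB1 changed by -1.16, the type II receptor BMPR2 rose by 1.05 and the pseudoreceptor BAMBI changed by -0.93. The Hedgehog effectors GLI1 and GLI2 changed by -0.56 and -0.93, and the ligand IHH rose by 0.52.

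Of 40 chemokines, 7 were lower (17.5%) and 2 higher (5%), both below the 21.1% and 23.4% over all genes. In mean signal 24 of the 40 were in the lowest 25% of genes. Without vehicle replicate 1 the count of falls was 12. CXCL8, a neutrophil attractant, read 5.54, 5.36 and 5.30 with AZ628 and 9.51, 9.69 and 9.69 with vehicle (-4.23, SE 0.13, adjusted p = 4.98e-14), without overlap. CXCL1, CXCL3 and CXCL6, which act on the same receptors, changed by -2.19, -1.43 and -1.13, and CCL20, which draws CCR6-bearing cells, by -1.03. CCL15 and CCL28, a mucosal chemokine, rose by 0.78 and 0.61. Among interleukins and interferons, IL18, an epithelial activator of interferon-gamma, read 7.66, 7.86 and 7.43 with AZ628 and 6.51, 5.94 and 6.26 with vehicle (1.41), IL15 rose by 0.99, and LIF, a cytokine of the interleukin-6 family, fell by 1.64.

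Growth factor genes split within families. Of 10 EGF ligands, NRG4, which signals through ERBB4, rose by 1.27 and BTC, a ligand of EGFR, by 0.46, while EREG and HBEGF changed by -1.39 and -1.42. FGF19, an intestinal hormone that acts on liver, read 4.98, 5.21 and 5.07 with AZ628 and 6.82, 6.92 and 6.83 with vehicle (-1.77). VEGFA, the vascular growth factor, fell by 0.31. Netrin 4, NTN4, a basement membrane protein, read 10.63, 10.90 and 10.59 with AZ628 and 8.67, 8.39 and 8.45 with vehicle (2.20). Its arrays did not overlap. In the endocrine peptide list TAC1, the precursor of substance P, rose by 1.71 and adrenomedullin, ADM, by 1.55, whereas endothelin 1, EDN1, fell by 1.05.

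Secreted proteases and their inhibitors also moved in both directions. PLAUR, the receptor of urokinase, read 6.39, 6.63 and 6.41 with AZ628 and 8.87, 8.72 and 8.83 with vehicle (-2.33), without overlap. The kallikreins KLK10 and KLK6 changed by -2.41 and -1.09, and ADAM19, a metalloprotease, by -2.42 (0.16 on a single-transcript probe set, adjusted p = 0.287). MMP7, matrilysin, changed by -1.46 and its inhibitor TIMP1 by -0.97, while TIMP2 rose by 1.70. TMPRSS2, a membrane serine protease, rose by 1.83, and matriptase, ST14, and prostasin, PRSS8, which act in 1 cascade, by 0.95 and 0.93. SERPINI1, neuroserpin, read 8.58, 8.69 and 8.60 with AZ628 and 5.33, 5.28 and 5.28 with vehicle (3.32), the strongest of the 31 serpins. SERPINA3 fell by 1.36. PROC, the precursor of the anticoagulant protein C, rose by 2.42 and F3, tissue factor, which starts coagulation, by 1.33. In total 9 of 45 genes on the complement and coagulation list were higher and 3 lower, CD55, a brake on complement at the cell surface, falling by 1.48. The list was built from a name pattern and also counts C1D, which is not a complement gene.

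Among 36 mucins, trefoil peptides and other gut secretory genes, 8 were higher and 8 lower. The transmembrane mucins MUC20 and MUC13 rose by 2.92 and 2.53 and the trypsin inhibitor SPINK1 by 1.84. AGR2, which helps fold gel-forming mucins, changed by -1.29, the related AGR3 by -2.59, the lectin REG4 by -1.33 (-0.31 on a single-transcript probe set, adjusted p = 0.19) and TFF1 by -0.74, whereas TFF3, the goblet cell trefoil peptide, rose by 0.61. The glycosyltransferases of mucin cores moved apart, GCNT1 rising by 2.43 and GCNT3, the mucin-type enzyme of gut, changing by -2.86. Laminin beta 3, LAMB3, of the epithelial basement membrane rose by 1.95 and COL18A1, the source of endostatin, by 1.12.

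Fatty acid oxidation genes had the highest share of rises among the metabolic lists. Mitochondria and peroxisomes break fatty acids down by repeated oxidation, and 19 of 22 measured genes (86.4%) were higher and none lower, with a median of 0.64. ECI2, an isomerase for unsaturated chains, read 9.32, 9.48 and 9.29 with AZ628 and 6.96, 6.61 and 6.81 with vehicle (2.57, SE 0.08, adjusted p = 6.23e-14). EHHADH, the peroxisomal bifunctional enzyme, read 8.12, 8.32 and 7.91 with AZ628 and 6.10, 5.51 and 5.88 with vehicle (2.28). Neither overlapped. SLC25A20, the carnitine carrier of the inner membrane, rose by 1.52, DECR1, another enzyme for unsaturated chains, by 1.35, the medium-chain dehydrogenase ACADM by 1.11 and the trifunctional enzyme subunit HADHB by 1.02. FABP1, the fatty acid carrier of liver and gut, rose by 2.81, whereas FABP5, an epidermal carrier, fell by 2.30. PON1 and PON3, lactonases carried on HDL, rose by 4.18 and 1.44, and the endothelial lipase LIPG fell by 2.37. G0S2, an inhibitor of the triglyceride lipase ATGL, rose by 2.04. The cholesterol exporters ABCA1 and ABCG1 rose by 2.39 and 1.08.

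Amino acid transporters counted 17 lower, 9 of them by at least 2-fold, and 9 higher of 52. SLC7A5, the large neutral amino acid exchanger, read 7.38, 7.30 and 7.18 with AZ628 and 9.51, 9.50 and 9.48 with vehicle (-2.21, SE 0.07, adjusted p = 4.18e-14), and its heavy chain SLC3A2 fell by 0.83. SLC7A11, the cystine exchanger that feeds glutathione synthesis, changed by -1.95, SLC1A5, a glutamine carrier, by -1.81 and SLC7A1, for arginine and lysine, by -1.95 (-0.25 on a single-transcript probe set, adjusted p = 0.189). The carriers that rose include those of absorptive brush border: SLC3A1 read 8.28, 8.18 and 8.37 with AZ628 and 5.98, 5.48 and 6.14 with vehicle, a rise of 2.41 (0.17 on a single-transcript probe set, adjusted p = 0.41), its partner SLC7A9 rose by 0.64 and the basolateral SLC7A7 by 1.43. Of 46 mitochondrial carriers 17 were lower (37%, against 21.1% of all genes) and 8 higher, with a median change of -0.03. The ornithine carrier SLC25A15 changed by -2.63 and the folate and flavin carrier SLC25A32 by -1.82.

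Among chloride and bicarbonate proteins, ANO1, the calcium-activated chloride channel, read 6.03, 5.86 and 6.05 with AZ628 and 9.79, 9.53 and 9.62 with vehicle (-3.67), with its 3 probe sets between -3.67 and -0.00. ANO3, a scramblase of the same family, moved the other way at 3.04, as did CLIC3 and CLIC5, intracellular chloride channel proteins, at 3.14 and 1.94. The drug exporter ABCG2 read 7.29, 7.36 and 7.31 with AZ628 and 10.22, 10.13 and 10.13 with vehicle (-2.84). SLCO4A1, an organic anion transporter, fell by 3.00. AQP11, an intracellular water channel, rose by 2.21, and AQP3 and AQP5, of the plasma membrane, changed by -0.90 and -1.07. Of 46 metal transporters and metallothioneins 14 were higher and 10 lower. The metallothioneins MT1F and MT2A, which bind zinc and copper, rose by 1.52 and 1.45, the iron exporter SLC40A1 by 0.97 and the duodenal ferrireductase CYBRD1 by 1.50. The transferrin receptor TFRC changed by -0.87 and the zinc importers SLC39A8 and SLC39A10 by -2.06 (-0.17 on a single-transcript probe set, adjusted p = 0.236) and -1.52.

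Serine, folate and one-carbon genes, which supply carbon for nucleotides, were lower in 13 of 19 and higher in none (1 without AZ628 replicate 1 or vehicle replicate 1), with a median of -0.56. MTHFD1L, the mitochondrial formate producer, read 8.55, 8.46 and 8.41 with AZ628 and 10.86, 10.98 and 10.99 with vehicle (-2.46, SE 0.07, adjusted p = 2.52e-14). MTHFD1, its cytosolic counterpart, changed by -1.78, MTHFD2 by -1.48, PSAT1 of serine synthesis by -1.57 and thymidylate synthase, TYMS, by -1.31. Polyamines are small cations needed for translation. All 4 enzymes of their synthesis were lower: ODC1, the first enzyme, changed by -1.57, AMD1, which makes the aminopropyl donor, by -1.34, spermidine synthase, SRM, by -2.54 and spermine synthase, SMS, by -0.61 (-0.22 on a single-transcript probe set, adjusted p = 0.0741). SRM read 8.33, 8.17 and 8.49 with AZ628 and 10.87, 10.86 and 10.88 with vehicle, without overlap. SAT2, a polyamine-related acetyltransferase gene, rose by 1.91, and OAZ2, an antizyme that blocks ODC1, by 0.88. The upstream window of SRM (chr1:11060169-11060248, GRCh38.p14 from RefSeq, minus strand, 230 to 151 bases before the start) is shown because it holds the E-box CACGTG (capitals), the sequence that MYC with MAX is known to bind. Of the polyamine and one-carbon genes that were lower, 18 had a window and 5 of them held CACGTG (27.8%), and of the list members that were not lower 9 had a window and 0 held it, against 10.9% of 14425 tested genes with a window. These counts are small, and whether MYC had a part in the falls was not tested.
SRM: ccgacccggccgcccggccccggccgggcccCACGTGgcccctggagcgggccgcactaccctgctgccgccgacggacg

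Nuclear pore and nuclear transport genes were lower in 38 of 48 (79.2%) and higher in 2, with a median of -0.55. The scaffold nucleoporin NUP155 changed by -1.35, NUP93 by -1.26, XPOT, the exporter of tRNA, by -1.33 and XPO5, the exporter of microRNA precursors, by -1.10. KPNA5 and KPNA7, which import cargo, were the members that rose, at 0.43 and 0.40, and without AZ628 replicate 2 only 1 of them passed. RNA polymerase subunits were lower in 20 of 29 and higher in 2. POLR3G, the polymerase III subunit of proliferating and stem cells, averaged 3.95 with AZ628 and 6.76 with vehicle, a change of -2.81 (-0.28 on a single-transcript probe set, adjusted p = 0.0575), and the polymerase I subunits POLR1A and POLR1B changed by -1.84 and -1.92. Among 84 chaperones 34 were lower, such as the mitochondrial HSPA9 and HSPE1 at -1.17 and -1.08, and 20 higher, led by the small heat shock protein HSPB1 at 1.52. Tubulins were lower in 11 of 21, with TUBA4A at -1.78 and the centrosomal TUBG1 at -1.19, and higher in 2. Leaving out AZ628 replicate 1 or 3 or any 1 vehicle array left 1 higher.

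**Figure D3:**
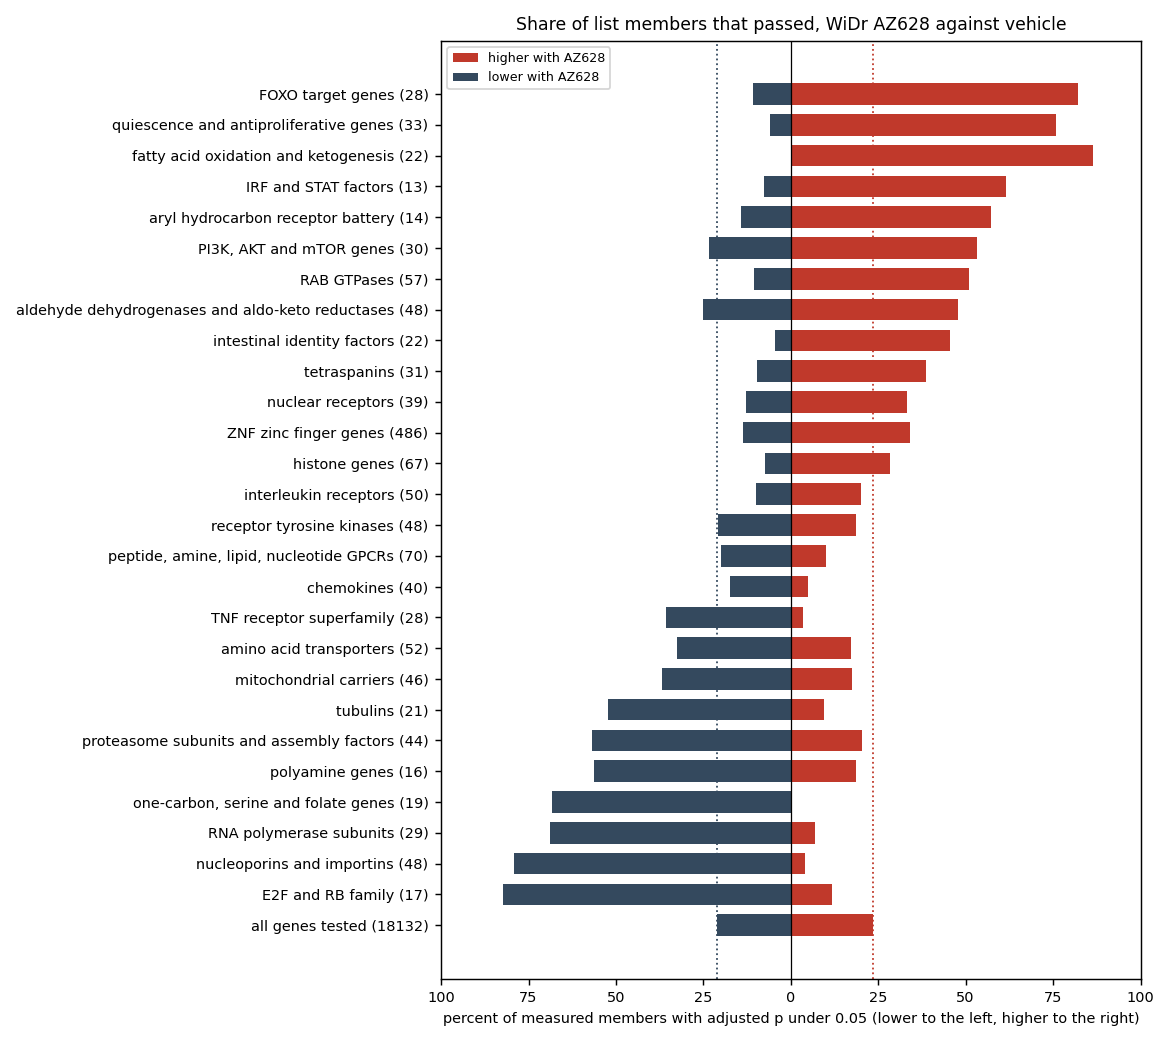
Percent of the measured members (number in brackets) of 27 gene lists that were higher (red, to the right) or lower (dark blue, to the left) with AZ628 in WiDr at an adjusted p under 0.05. Dotted lines and the last bar mark all 18132 genes, 23.4% higher and 21.1% lower. FOXO targets and fatty acid oxidation genes have the longest bars to the right, and the E2F and nuclear transport lists the longest to the left.

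Most histone genes lie in clusters, are made in S phase and end without a poly(A) tail, though some can be polyadenylated. The sources used here do not settle whether the labelling captured transcripts that lack such a tail. Of 67 measured, 19 (28.4%, against 23.4% of all genes) were higher, 10 of them by at least 2-fold, and 5 (7.46%, against 21.1%) lower, while 29 were in the lowest 25% of genes by mean signal. H2BC5 read 10.41, 10.29 and 10.24 with AZ628 and 6.57, 6.50 and 6.65 with vehicle (3.74, SE 0.07, adjusted p = 2.26e-16), and its 3 probe sets lay between 3.50 and 4.45. H2AC6 read 8.73, 8.40 and 8.49 with AZ628 and 5.75, 5.06 and 5.80 with vehicle (3.01), H2BC21 rose by 2.65 (0.09 on a single-transcript probe set, adjusted p = 0.684), and the linker histone H1-2 by 2.05. Each lay wholly above vehicle. H2BC8 and H2BC12 rose by 1.79 and 1.47. In contrast H4C3 changed by -0.87 and the replication-independent variant H2AZ1 by -0.26. Probe sets of clustered histones can share sequence, so single members are uncertain.

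Upstream stretches of 4 histone genes that rose are shown because they carry ATTTGCAT, the octamer known to bind OCT1 in histone H2B promoters (capitals, found on either strand, so that the reverse complement appears in H2AC6). The sequences are RefSeq's on GRCh38.p14: H2BC21 at chr1:149886693-149886772, H2BC8 at chr6:26216699-26216778 and H2BC12 at chr6:27146869-27146948, all on the minus strand, 90 to 11 bases before the start, and H2AC6 at chr6:26124002-26124081 on the plus strand, 170 to 91 bases before. The octamer stood in 1.77% of 35116 windows and, by gene, in 2.14% of 14425 tested genes with a window. By gene it was in 11 of 19 histone genes that were higher, 14 of 40 that did not pass and 1 of 3 that were lower and had a window, so it was not confined to those that rose.
H2BC21: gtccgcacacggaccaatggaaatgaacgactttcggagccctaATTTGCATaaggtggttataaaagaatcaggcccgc
H2BC8: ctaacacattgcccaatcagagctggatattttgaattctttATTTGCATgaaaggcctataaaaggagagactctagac
H2BC12: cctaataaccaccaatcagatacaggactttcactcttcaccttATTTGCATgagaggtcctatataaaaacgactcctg
H2AC6: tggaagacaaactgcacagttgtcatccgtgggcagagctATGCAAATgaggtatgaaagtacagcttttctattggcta

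Among chromatin regulators, the list of histone deacetylases, sirtuins, demethylases and DNA methyltransferases had 20 of 46 higher (43.5%) and 6 lower (13%). The mitochondrial sirtuin SIRT4 rose by 2.30, the demethylase KDM3A by 0.91 and HDAC5 by 0.93, whereas DNMT1, the maintenance DNA methyltransferase, changed by -1.34 and HDAC4 by -1.10. Histone methyltransferases and Polycomb genes counted 18 lower (36%) and 13 higher of 50, with DOT1L, which methylates histone H3 in gene bodies, at -1.48 (-0.19 on a single-transcript probe set, adjusted p = 0.257) and SUV39H2, which methylates it in heterochromatin, at -1.36.

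RAB GTPases direct vesicle traffic, and 29 of 57 (50.9%) were higher and 6 lower. RAB26, linked to secretory granules, read 9.48, 9.29 and 9.43 with AZ628 and 7.25, 7.09 and 7.15 with vehicle (2.23). RAB27B and RAB27A, which dock secretory vesicles, rose by 2.06 and 1.66. RAB17, an epithelial member, rose by 1.02, and RAB5C of early endosomes fell by 0.35. The villus proteins VIL1 and PLS1 rose by 0.98 (0.52 on a single-transcript probe set, adjusted p = 0.0806) and 0.75, and keratin 20, KRT20, a marker of mature colonocytes, fell by 1.22.

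The effect of AZ628 in WiDr was set against its effect in HT29, a comparison with no array in common. The difference of the effects passed for 1667 genes (9.19%), 931 of them above 0 (5.13%) and 736 below 0 (4.06%), and for 175 it was at least 2-fold. Of the 1667, 982 passed in the same direction in both lines and 91 in opposite directions. PON1 had the largest difference above 0: it changed by 4.18 in WiDr and by 0.42 in HT29 (difference 3.76, adjusted p = 5.19e-12). ALDH1A3 changed by 3.51 in WiDr and 0.71 in HT29 (difference 2.80), and PPARGC1A by 2.25 in WiDr and -0.00 in HT29 (difference 2.26). At the other end NNMT changed by -3.78 in WiDr and -0.02 in HT29 (difference -3.76, adjusted p = 8.49e-09). Its mean signal was 4.26 with AZ628 and 8.03 with vehicle in WiDr, and 4.27 with AZ628 and 4.29 with vehicle in HT29, both below the lower quartile over genes there, so a fall could hardly be measured. CLDN2, a pore-forming claudin, changed by -1.68 in WiDr and -4.68 in HT29 (difference 2.99).

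Other genes were among those with the largest differences below 0. SI rose by 2.99 in WiDr and 5.14 in HT29 (difference -2.15), GSTA1 by 3.78 in WiDr and 6.24 in HT29 (difference -2.46), and BTNL8, a butyrophilin-like protein of gut epithelium, by 0.79 in WiDr and 3.35 in HT29 (difference -2.55). UNC93A rose by 0.32 in WiDr and 3.79 in HT29. SLC2A2, the basolateral sugar carrier GLUT2, read -0.05 (adjusted p = 0.758) in WiDr, where the mean of its probe sets gave 0.17 (adjusted p = 0.0261), and rose by 2.07 in HT29 (difference -2.12). Opposite directions that passed in both lines were seen for THBS1, a matrix glycoprotein, at 0.47 in WiDr and -1.60 in HT29. The same held for SLC4A4, a bicarbonate cotransporter, at 0.97 in WiDr and -1.10 in HT29, for TGFBR3, a TGF-beta coreceptor, at 0.95 in WiDr and -1.04 in HT29, and for the cyclooxygenases PTGS1 at 1.48 in WiDr and -0.53 in HT29 and PTGS2 at -1.18 in WiDr and 0.71 in HT29. The histone list held 16 genes whose effect differed between the lines, among them H4C8, with a value of -0.06 in WiDr (adjusted p = 0.704) and 2.26 in HT29.

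**Figure D4:**
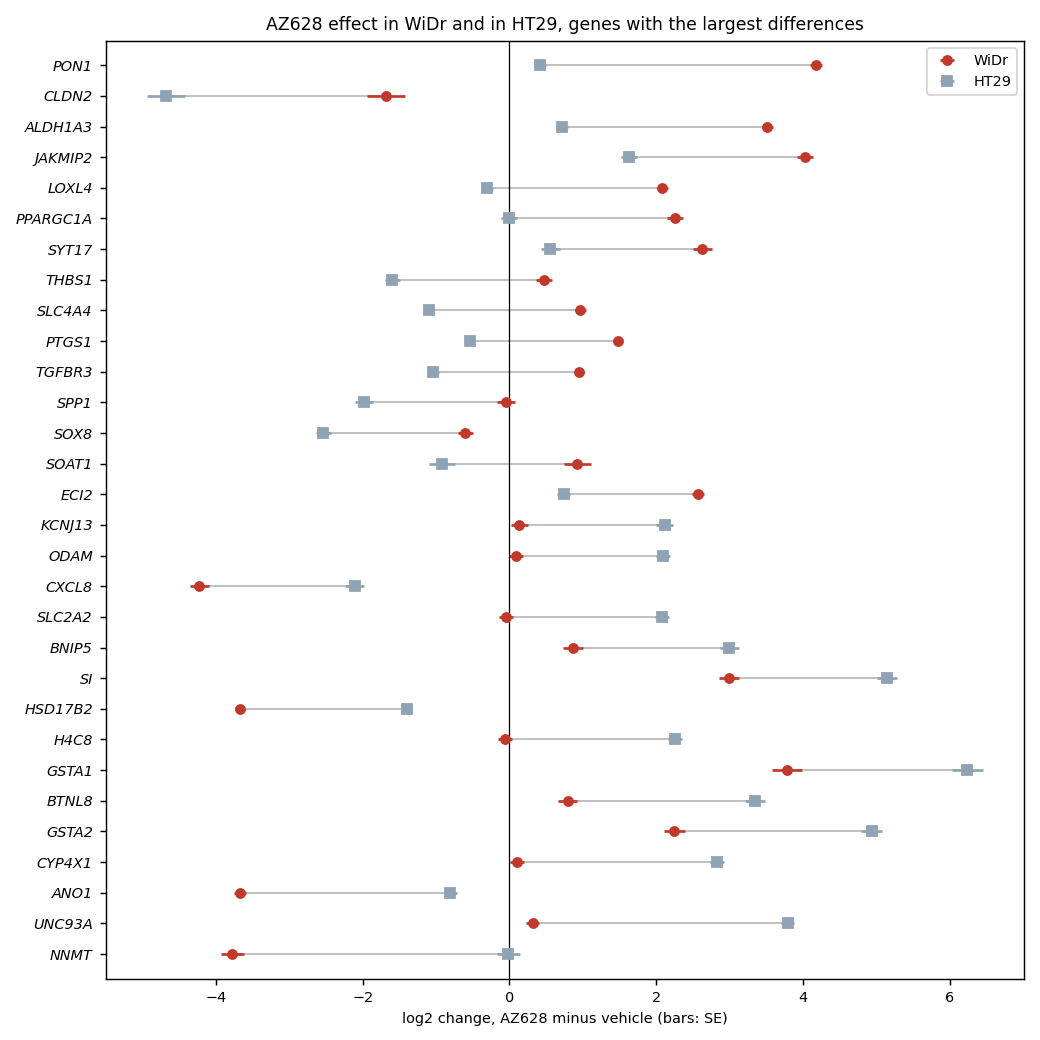
Log2 change with AZ628 minus vehicle (horizontal axis, bars are SE) in WiDr (red circles) and HT29 (pale blue squares) for the 15 genes with the largest passing differences between the lines in each direction, ordered by the difference. PON1 at the top changed by 4.18 in WiDr and 0.42 in HT29, and NNMT at the bottom by -3.78 in WiDr and -0.02 in HT29.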

How the data were processed

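RNA from WiDr and HT29 cultures was measured on 18 Affymetrix arrays in 6 groups of 3. The deposited log2 signals per probe set are the authors' RMA values. The submitters' processing notes list R 3.0.2 and limma besides RMA. Per the labels' protocols, 100 ng of RNA entered labelling. Genes were named from probe sets tied to 1 symbol, and the one with the highest mean over the 18 arrays stood for each of 18132 genes. No filter on dim genes was applied. R 4.3.3 with limma 3.58.1 fitted 6 groups over all arrays (12 residual degrees of freedom), with eBayes and Benjamini-Hochberg adjustment over all genes. Contrasts were AZ628 minus vehicle in WiDr and its difference from that in HT29. The fit was tested on simulated data with 100 genes changed 1.5-fold and 100 changed 2-fold. The WiDr contrast recovered 86% and 100% of them, with 13 false calls. The difference between lines recovered 51% and 96%, with 7 false calls. Far fewer genes were changed there than passed here. Promoter windows came from RefSeq tables. Plots used matplotlib 3.10.9 under Python 3.11.15.

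The 109 gene lists, the members and the groupings were chosen with earlier results of these data known, so no list's direction is independent evidence. Some non-members caught by name patterns were removed after values were seen, but not all, C1D among those that stayed. The naming rule took the 40 largest rises and falls, up to 5 passing members per list and direction and 3 others, and the 15 largest differences from HT29 in each direction, and not all of them are printed. Genes outside it were named after their values were seen. The alternatives were a 2-fold minimum, other probe set choices, no dim genes, quantile normalization, fewer arrays, another variance prior, a replicate block and leaving out each array.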

Additional observations from a re-analysis of the deposited data

Results flagged for a closer look

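Of the 370 genes with values given above or here, 53 were singled out because their AZ628 effect in WiDr differed from that in HT29 by at least 2-fold with an adjusted p under 0.05 for the difference itself (limma, over all genes). The values below are differences of log2 changes, WiDr minus HT29, and a positive one means a larger rise or a smaller fall in WiDr. For NNMT (-3.76), ADGRL4 (-1.53), CXCL6 (-1.10) and TRIB2 (-1.08) the HT29 signal was dim in both groups, averaging 4.27, 3.44, 2.73 and 4.58 with AZ628 and 4.29, 3.45, 2.76 and 4.60 with vehicle, where the lower quartile over genes was 4.74 and 4.73. These 4 differences therefore do not show a smaller response in HT29. HT29 signal was also low for FGF19 (5.22 with AZ628, 5.24 with vehicle) and HOXD13 (4.98 and 4.97). The same held for RUNX2 (4.87 and 5.58), CYP24A1 (4.19 and 4.75) and CXCL1 (5.28 and 5.87), so their differences carry a like limit. CXCL8 and ADAM19 ended at 4.89 and 5.17 with AZ628 in HT29, near that quartile, so a larger fall there could hardly be measured. Groups of 3 arrays are too small for a test of single outlying arrays.

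Among drug, steroid and lipid enzymes the difference was 3.76 for PON1, 2.80 for ALDH1A3, 1.83 for ECI2 and 1.06 for UGT2B15. It was 1.03 for AKR1C1 and below 0 for its relatives AKR1B10 at -1.64 and AKR1B15 at -1.35. GSTA1 and GSTA2 rose less in WiDr, with differences of -2.46 and -2.69. HSD17B2 at -2.28 fell further in WiDr, and CYP24A1 differed by -1.01. The cyclooxygenases differed in opposite senses, PTGS1 at 2.02 and PTGS2 at -1.89. ABCA1 differed by 1.11 and the iron-linked reductase gene CYBRD1, which changed by -0.27 in HT29, by 1.78.

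Among receptors and surface proteins the difference was 1.53 for NPY1R, 1.99 for TGFBR3 and 1.36 for NECTIN3. LGR5 differed by -1.41 and CEACAM1 by -1.56, both lower in each line. BAMBI at 1.70 and CLDN2 at 2.99 fell less in WiDr. BTNL8 at -2.55, SI at -2.15, UNC93A at -3.47 and SLC2A2 at -2.12 were higher in HT29 with AZ628 by more than in WiDr. MUC13 differed by 1.13. The channel and transporter genes gave -2.87 for ANO1, 1.07 for CLIC3 and 2.07 for SLC4A4.

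Among secreted proteins CXCL8 differed by -2.12 and CXCL1 by -1.60, both falling further in WiDr, with the limit of low HT29 signal given above. FGF19 at -1.75 changed by -0.02 in HT29. TAC1 differed by 1.75, THBS1 by 2.07 and the metalloprotease ADAM19 by -1.23. The membrane scaffold gene CAV1 differed by -1.28 and the keratin gene KRT15 by 1.54. The mucin core enzyme GCNT3 differed by -1.20.

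Among transcription regulators PPARGC1A differed by 2.26, THRB by 1.20, RUNX2 by -1.84 and HOXD13 by -1.38. The histone gene H4C8 differed by -2.31. NDRG1 at 1.07, ARRDC4 at 1.08 and BLNK at 1.38 rose in both lines and further in WiDr. PDE5A differed by 1.60 and ARHGAP24 by 1.45.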

How the results depend on the processing

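For AZ628 against vehicle, a 2-fold minimum gave 784 genes higher and 789 lower, and leaving out probe sets that bind several transcripts, which leaves 8356 genes to test, gave 1210 and 1237. For the difference between WiDr and HT29 the same settings gave 92 genes above 0 and 83 below, and 218 and 195. Leaving out each array in turn gave 3959 to 4107 genes higher, 3579 to 3665 lower, 732 to 894 differing above 0 and 576 to 683 below 0. Counts under the other settings (mean of a gene's probe sets, no dim genes, quantile normalization again, only the arrays compared, trended and robust prior) were within 1.5 times. With a replicate block the counts were 4146 higher and 3708 lower, and 664 above 0 and 545 below 0. Deviations from the group means correlated at 0.178, -0.06772 and 0.023 between same-numbered AZ628 and vehicle arrays, so the numbers were not taken to pair the arrays.

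Without probe sets that bind several transcripts 139 of the 370 named genes could be repeated, of which 17 lost the call and 6 turned in direction. The other settings gave 4429 repeats, of which 1 lost the call and 1 turned. The cause was not tested. The turned values without probe sets that bind several transcripts were 0.16 for ADAM19, -0.21 for CREB3L2, -0.17 for FGFR2, -0.10 for PIK3IP1, -0.0074 for PSMB8 and 0.37 for SLC2A2, and with the mean of probe sets 0.17 for SLC2A2. KPNA5 lost its call without AZ628 replicate 2 (0.30, adjusted p = 0.0527).

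Genes that share sequence (GSTA, UGT2B, AKR1 and histone copies) cannot be told apart by some probe sets. RMA equalizes the arrays' distributions, which hides a shift common to most genes, and it compresses changes near background. A gene is judged mostly from 1 probe set. Dose and time of AZ628, and whether arrays were separate cultures, are not given.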

Other observations

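Among 47 keratins, which form the cytoskeleton of epithelia, 3 were higher and 7 lower: KRT19 rose by 0.76 and KRT15 by 1.05, while KRT13 fell by 0.64. The connexins GJB1 and GJB2, which form gap junctions, passed in opposite directions at 1.05 and -1.05. Among the sphingolipid genes, 11 were higher and 9 lower of 31, with the sphingomyelinase SMPD3 at 1.89, the acid ceramidase ASAH1 at 1.06 and the phosphatase SGPP2 at -1.48. Potassium channels were higher in 8 of 78 (10.3%) and lower in 3 (3.8%), both below the 23.4% and 21.1% over all genes. Without vehicle replicate 1 the count of falls was 1, and 35 of the 78 were in the lowest 25% of genes by mean signal. KCNMB4, a subunit of the large-conductance calcium-activated channel, rose by 1.67. Annexins and other caveolar or membrane scaffold genes were lower in 12 of 21 (57.1%, against 21.1% of all genes) and higher in 2, including CAV1 at -0.78 and ANXA5 at -0.79.

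Among the regulatory kinases, PLK2, PLK3 and the pseudokinases TRIB3 and TRIB2 changed by -1.76, -1.53, -1.93 and -1.10, while the death-associated kinase DAPK1 rose by 1.44 and PIM1 by 0.94. Semaphorins, which guide cells and axons, included SEMA3B at 1.05 and SEMA3A at -0.81, members of the same secreted class that moved apart. In the butyrophilin family BTN3A2 rose by 0.91 and BTN3A3 by 0.58, and 7 of 18 members of it and of the B7 family were higher and 1 lower (2 without AZ628 replicate 3).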
